A study of Homo sapiens with 4 samples.

Results

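The eukaryotic translation initiation factor (EIF) genes encode the proteins that bring the initiator tRNA, the small ribosomal subunit and a capped mRNA together before the first peptide bond is made. They were followed here on 4 one-colour Affymetrix arrays of HepG2, an established hepatocellular carcinoma line. The groups were HepG2 cells transfected with anti-miR-191, an antisense inhibitor of the microRNA miR-191 (n = 2), and HepG2 cells transfected with a negative control anti-miR (n = 2). Both groups received the same lipid transfection reagent, and the labels give no dose or time. By the series text, the duplicates came from independent studies. Arrays with the same number in their titles were taken as experiment 1 or 2, an anti-miR-191 culture with its own control culture. This pairing was inferred, and the calls below depend on it.

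The EIF genes were taken as every gene whose symbol starts with EIF and a digit, measured by at least 1 row of the deposited table that carries no other symbol, leaving out symbols that end in P and digits. This gave 48 of the 18417 genes with a row of their own, in 54 rows, and the brightest row stood for a gene with several. Of these, 47 lay above the limit of 3.41 (log2) below which rows were left out as dim, among 14147 genes tested, and the dim one was EIF2S3B. The EIF1 group held 5 genes, the EIF2 group 15, the EIF3 group 13, the EIF4 group 11 and the EIF5 group 3, and EIF6 stood alone. One of the EIF3 group, EIF3J-DT, is a noncoding transcript that runs away from EIF3J and encodes no factor. EIF3C, EIF3CL, EIF4A1, EIF4EBP3, EIF5A and EIF5AL1 appeared only in rows with several symbols and are not analysed here as genes. The spelling rule also leaves out EIF4EBP1 and EIF4EBP2, which are genes and not pseudogenes, so their values stand apart below.

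Initiation runs in steps. The factor eIF2 carries the initiator tRNA to the small ribosomal subunit, where eIF1, eIF1A and eIF3 help to hold it open for scanning. The cap-binding factor eIF4E, the scaffold eIF4G and the helicase eIF4A load the mRNA, eIF5 makes eIF2 hydrolyse its GTP at the start codon, and eIF5B joins the large subunit. The factor eIF2B recharges eIF2 with GTP, and kinases that phosphorylate eIF2 alpha block that exchange, which lowers initiation on most mRNAs.

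The sequence of the inhibited microRNA is shown first because it defines the treatment. RefSeq (GRCh38.p14) places the mature strand on the minus strand of chr3:49020672-49020694, and the capitals mark its seed, bases 2 to 8.
hsa-miR-191-5p: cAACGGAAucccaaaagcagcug

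The promoters of 5 EIF genes are shown because they belong to genes described below and carry short letter patterns that are counted over all promoters below. All are RefSeq sequences on GRCh38.p14, printed in the direction of transcription, and the stretches around the start run from 60 bases before it to the 20th base from it. EIF4A2, on the plus strand at chr3:186783517-186783596, has TATAAA 30 bases before its start and a pyrimidine run (C or T only) at the start, both in capitals. EIF3D, on the minus strand at chr22:36529147-36529226, and EIF3K, on the plus strand at chr19:38619128-38619207, have in capitals the pyrimidine run at the start, of 10 and 8 bases. EIF2B2, on the plus strand at chr14:75002861-75002940, has CCGGAAGT, a letter pattern of ETS-family factors, 2 bases before its start. EIF4A3, on the minus strand at chr17:80147109-80147269, has CACGTG, the E-box read by MYC and related factors, 121 bases before its start.
EIF4A2: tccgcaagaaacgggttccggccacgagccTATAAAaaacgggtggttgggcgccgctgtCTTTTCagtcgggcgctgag
EIF3D: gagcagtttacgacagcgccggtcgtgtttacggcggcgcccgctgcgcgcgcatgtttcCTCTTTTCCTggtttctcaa
EIF3K: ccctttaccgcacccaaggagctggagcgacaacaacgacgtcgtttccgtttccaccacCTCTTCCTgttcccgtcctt
EIF2B2: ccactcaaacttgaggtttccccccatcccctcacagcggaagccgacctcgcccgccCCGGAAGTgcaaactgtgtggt
EIF4A3: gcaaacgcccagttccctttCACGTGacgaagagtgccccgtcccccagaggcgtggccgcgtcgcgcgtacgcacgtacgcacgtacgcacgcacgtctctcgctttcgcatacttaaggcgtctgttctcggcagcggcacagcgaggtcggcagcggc

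The values are log2 intensities, and every change is anti-miR-191 minus control. Array medians lay between 4.37 and 4.43 and interquartile ranges between 3.18 and 3.43, with the wider ranges after anti-miR-191. All 10 hepatocyte and HepG2 markers with a row of their own lay above the dim limit, with a median level of 10.4 after anti-miR-191 and 10.8 in controls. Their mean changes all lay below 0, between -1.04 and -0.064, with 6 higher in experiment 1 and 0 in experiment 2. One of them, TTR, fell by 1.04, or 10% of these markers, where 3.77% of all genes tested fell. Of 14 markers of other cell types 12 were tested and 0 of these were called, and 13 of the 14 read at most 6.02 (COL1A1) in controls, while LYZ read 9.24. An EIF gene whose control level lies under 6.02 is therefore not shown to be above background. A probe set's level depends on its probes, so levels are compared between arrays and never between genes.

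Across the family, 12 of the 47 EIF genes tested rose, 1 fell and 34 did not pass the test. Those that rose were EIF4A2, EIF4A3, EIF2AK3, EIF2B2, EIF3D, EIF5, EIF2S1, EIF3B, EIF2AK4, EIF4G1, EIF2B5 and EIF2B4, and EIF3K fell. The words rose and fell stand for an adjusted p under 0.05 in a limma fit with the experiment as a block. By that rule 10.1% of all genes tested rose and 3.77% fell, 13.9% in all, against 25.5% and 2.13% of the EIF genes. These calls rest heavily on the block. In the fit without it, which compares 2 arrays with 2, EIF4A2 alone rose among the EIF genes and 0 fell (16 higher and 2 lower at an unadjusted p under 0.05), while 3.2% of all genes rose and 0.714% fell, or 3.91% in all. Centring each array on its median, or cyclic loess, ended the calls of EIF2B4, EIF2B5 and EIF5, and quantile normalization ended those and the calls of EIF2AK4 and EIF2S1. The median EIF change was 0.35, against 0.01 for all genes tested, and the EIF median was 0.21 without control 1.

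**Figure D1:**
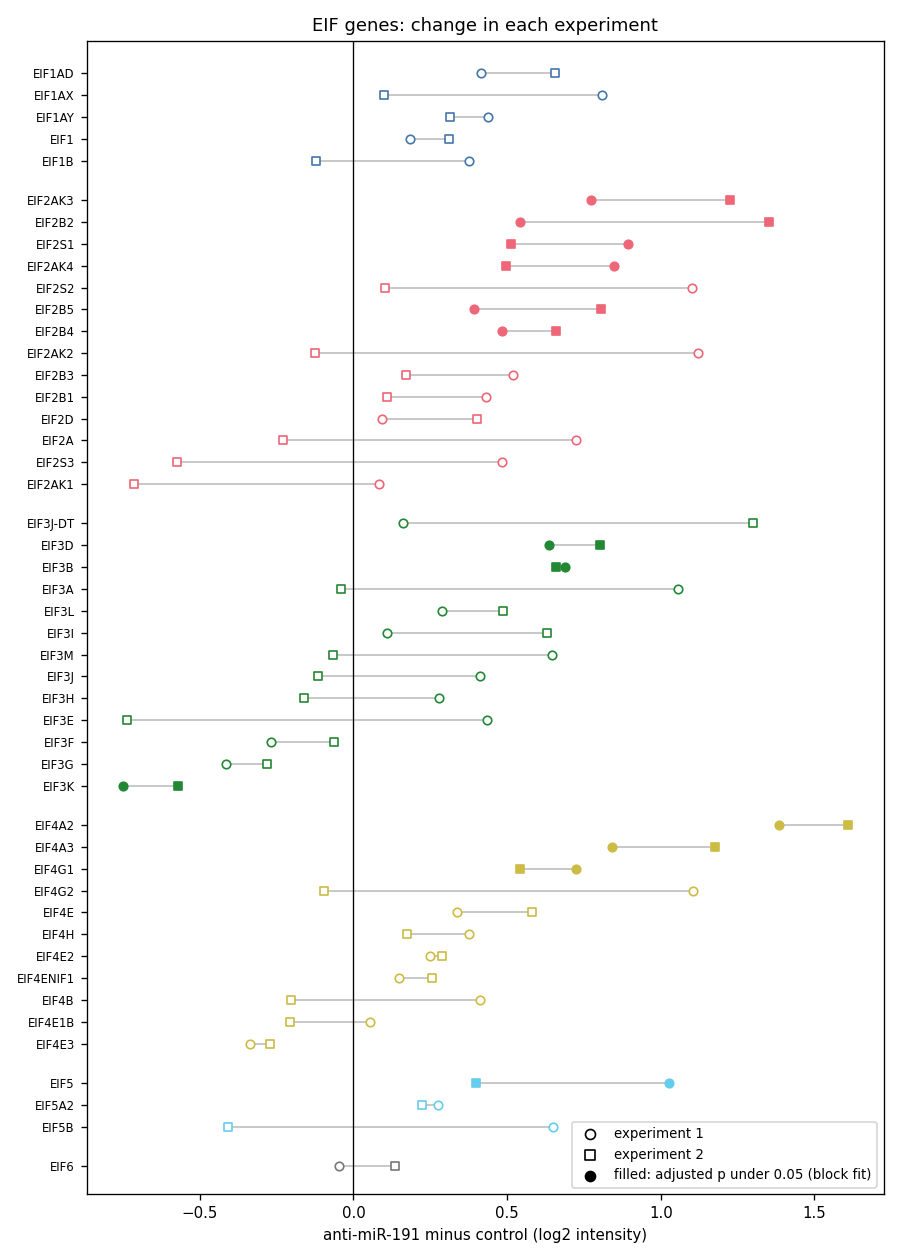
Change of each EIF gene tested (x axis, log2 intensity, anti-miR-191 minus control), by EIF group and ordered by mean change, with a circle for experiment 1, a square for experiment 2, and filled symbols for genes that passed the test. EIF4A2 lies farthest to the right, at 1.38 and 1.61, EIF3K lies left of 0 in both experiments, and 14 genes have their circle right of 0 and their square left of it.

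The array of control 1 stood apart for this family. It was the lowest of the 4 arrays for 25 of the 47 EIF genes, a share of 53.2% against 29.3% of all genes tested, and control 2 was the lowest for 14. Anti-miR-191 array 1 was the highest for 21 and anti-miR-191 array 2 for 16. The median EIF gene read 0.18 less on control 1 than on control 2, where the median gene of the whole table differed by 0.01. The part of this offset in the EIF changes was not tested. In experiment 2, which does not use control 1, the median EIF change was 0.17, against 0.43 in experiment 1. Both anti-miR-191 arrays read above both control arrays for 21 EIF genes, or 44.7%, where 29.4% of all genes did, and both control arrays read higher for 3, where 23.8% of all genes did.

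The 5 genes of the EIF1 group encode or resemble eIF1 and eIF1A, which bind the small subunit and guard the choice of the start codon. None of the 5 was called, where 13.9% of all genes tested were, and their median change was 0.38 (0.24 without anti-miR-191 array 2). All 5 were higher in experiment 1 and 4 in experiment 2, where 7413 and 7229 of the 14147 genes tested were. EIF1AD, which carries an eIF1A-like domain, had 6.42 and 6.79 after anti-miR-191, against 6.002 and 6.14 in controls. The arrays of the groups did not overlap, and its change of 0.54 had limma's adjusted p = 0.055. EIF1 had 11.13 and 11.14 after anti-miR-191, against 10.95 and 10.83 in controls, a change of 0.25 (adjusted p = 0.320). EIF1B, a close relative of EIF1, had 5.81 and 5.597 after anti-miR-191, against 5.44 and 5.72 in controls, and its groups overlapped. EIF1AX and its Y-linked copy EIF1AY are nearly identical and can share probes, so their values are uncertain. Both are counted among the 5, and the group's median is the value of EIF1AY.

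The EIF2 group held the most risen genes, 6 of 14 tested or 42.9%, where 10.1% of all genes rose, and its median change was 0.53. Without the block 0 of the 14 rose, where 3.2% of all genes did. Its members are the subunits of eIF2 and eIF2B, the eIF2 alpha kinases and EIF2A and EIF2D, which also bring tRNA to the ribosome. No member fell, and 10 of 14 were higher in both experiments, where 36.5% of all genes were. All 14 were higher in experiment 1, where 7413 of the 14147 genes tested were. The changes of EIF2A were 0.72 and -0.23 in the 2 experiments, and those of EIF2D were 0.09 and 0.40.

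The eIF2B genes encode the exchange factor that recharges eIF2. All 5 were higher in both experiments, where 36.5% of all genes were, with medians of 0.48 (experiment 1) and 0.66 (experiment 2). Of the 5, 3 rose with the block, where 10.1% of all genes did, and 0 without it. EIF2B2, the beta subunit, had 8.54 and 8.84 after anti-miR-191, against 8.001 and 7.49 in controls. Its groups did not overlap, and it rose 1.93-fold (0.95 ± 0.21, SE; adjusted p = 0.023). EIF2B4, the delta subunit, had 7.54 and 7.47 after anti-miR-191, against 7.06 and 6.81 in controls, and rose 1.49-fold (adjusted p = 0.041). The catalytic epsilon subunit EIF2B5 had 7.04 and 7.27 after anti-miR-191, against 6.64 and 6.47 in controls. It rose 1.51-fold with an adjusted p of 0.049, the closest to the threshold of the 12. EIF2B1, the alpha subunit, had changes of 0.43 and 0.11 in experiments 1 and 2 (adjusted p = 0.311). EIF2B3, the gamma subunit, had changes of 0.52 and 0.17 (adjusted p = 0.202), and its mean level of 3.77 in controls is close to the dim limit.

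Of the 3 subunits of eIF2 itself, 1 rose, where 10.1% of all genes did. EIF2S1, the alpha subunit that carries the regulatory phosphorylation site, had 6.68 and 6.53 after anti-miR-191, against 5.79 and 6.02 in controls. The arrays of the groups did not overlap, and it rose by 0.70 ± 0.16 (SE; adjusted p = 0.026). Its control level is not shown to be above background, so no fold is given. EIF2S2, the beta subunit, had 7.04 and 7.46 after anti-miR-191, against 5.93 and 7.36 in controls. Only control 1 lay low, so that the change was 1.10 in experiment 1 and 0.10 in experiment 2 (adjusted p = 0.135). EIF2S3, the gamma subunit that binds GTP and the tRNA, had 7.80 and 7.32 after anti-miR-191, against 7.32 and 7.89 in controls. The experiments went opposite ways (adjusted p = 0.926), and its near-identical copy EIF2S3B, dim on all 4 arrays, can share its probes.

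Each of the 4 kinases that phosphorylate eIF2 alpha answers to another kind of stress. Of these, 2 rose with the block, where 10.1% of all genes did, and 0 without it. EIF2AK3, or PERK, which senses unfolded protein in the endoplasmic reticulum, had 5.44 and 5.96 after anti-miR-191, against 4.67 and 4.74 in controls. Its groups did not overlap and it rose by 1.00 ± 0.17 (SE; adjusted p = 0.010). EIF2AK4, or GCN2, which senses uncharged tRNA, had 6.15 and 6.14 after anti-miR-191, against 5.30 and 5.64 in controls, and rose by 0.67 ± 0.16 (adjusted p = 0.029). Neither control level is shown to be above background, so no fold is given for these kinases. EIF2AK2, or PKR, which binds double-stranded RNA, had 5.29 and 4.85 after anti-miR-191, against 4.17 and 4.97 in controls. Control 1 was again the low array, with changes of 1.12 and -0.12 (adjusted p = 0.280). EIF2AK1, or HRI, the kinase regulated by haem, had 8.17 and 7.68 after anti-miR-191, against 8.09 and 8.39 in controls, the lowest mean change of the group at -0.32 (adjusted p = 0.370).

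Of 7 tested genes listed as partners of eIF2 alpha phosphorylation, 4 rose in both fits, or 57.1%, where 10.1% of all genes rose with the block and 3.2% without it. The list was chosen with earlier results of these data known, so its share is a description and not a test. In this list 0 fell, and the median change was 0.86. PPP1R15B, the constitutive phosphatase subunit that removes the phosphate from eIF2 alpha, had 7.91 and 8.50 after anti-miR-191, against 6.39 and 7.04 in controls. The arrays of the groups did not overlap and its changes were 1.52 and 1.46, a rise of 2.81-fold (adjusted p = 0.0022, and 0.047 without the block). GCN1, which activates the kinase GCN2, had 8.91 and 9.15 after anti-miR-191, against 8.10 and 8.24 in controls, and rose 1.82-fold (adjusted p = 0.010, and 0.046 without the block). The others were PPP1R15A, the stress-induced counterpart of PPP1R15B, with a change of 1.98, and the transcription factor DDIT3, with a change of 2.20. ATF4, which is translated when eIF2 alpha is phosphorylated, had 11.15 and 11.51 after anti-miR-191, against 10.98 and 11.33 in controls. Its groups overlapped, and its change of 0.18 did not pass (adjusted p = 0.478).

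**Figure D2:**
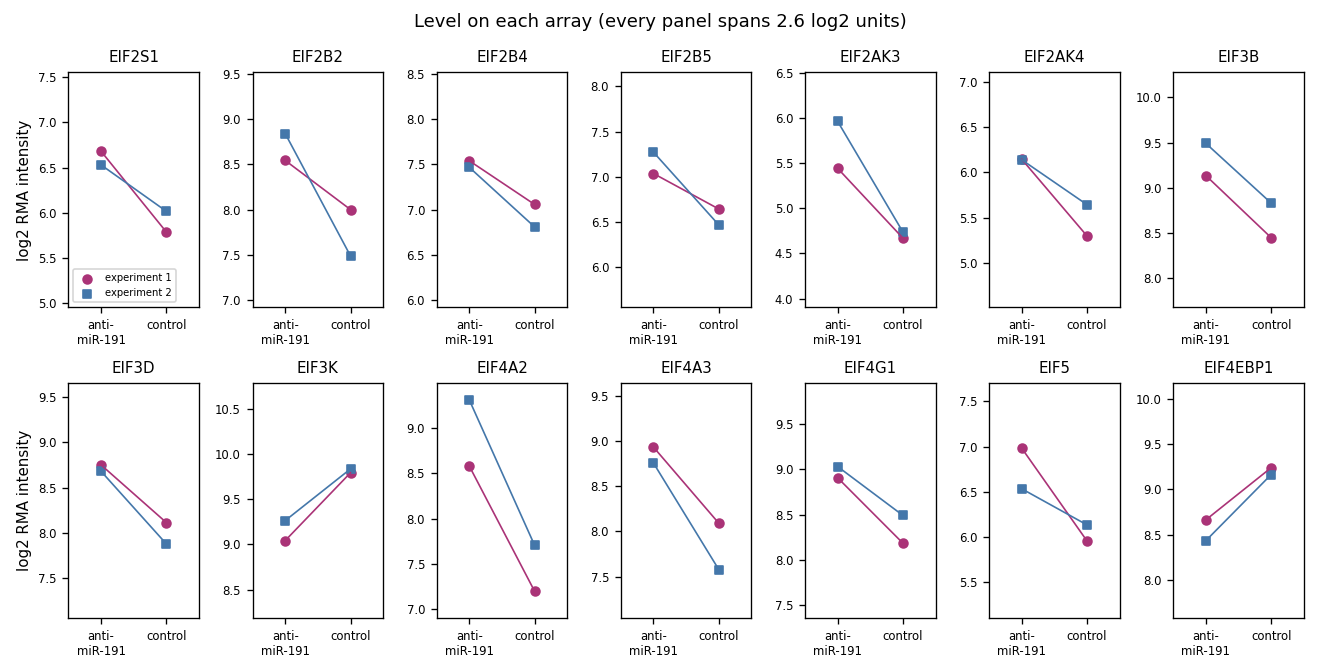
Log2 intensity on each of the 4 arrays (y axis, spanning the same range in every panel) of the 13 EIF genes that passed the test and of EIF4EBP1, anti-miR-191 left of control, with lines joining the arrays of an experiment. Both anti-miR-191 points lie below both control points for EIF3K and EIF4EBP1 and above them in the other 12 panels.

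With the spelling rule used here, the EIF3 group was the only one with genes called in both directions. EIF4EBP1, which that rule leaves out, fell, so the EIF4 group would otherwise hold both directions as well. Subunits of eIF3, the large scaffold on the small ribosomal subunit, numbered 12, of which 2 rose, 1 fell and 9 did not pass. Of all genes tested 10.1% rose and 3.77% fell. The median change of the group was 0.29 in experiment 1 and -0.065 in experiment 2. EIF3D, a subunit that can bind the cap of some mRNAs, had 8.75 and 8.68 after anti-miR-191, against 8.11 and 7.88 in controls. Its groups did not overlap and it rose 1.65-fold (0.72 ± 0.15, SE; adjusted p = 0.019). EIF3B, part of the conserved core, had 9.13 and 9.49 after anti-miR-191, against 8.45 and 8.83 in controls. It rose 1.60-fold, with changes of 0.69 and 0.66 (adjusted p = 0.022, and 0.128 without the block).

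EIF3K, a subunit outside the conserved core, was the one EIF gene to fall. It had 9.04 and 9.26 after anti-miR-191, against 9.79 and 9.83 in controls. The arrays of the groups did not overlap and it fell by 0.66 ± 0.15 (SE; adjusted p = 0.025, and 0.071 without the block). EIF3G, an RNA-binding subunit, had 9.25 and 9.29 after anti-miR-191, against 9.66 and 9.57 in controls, also without overlap, but its change of -0.35 did not pass (adjusted p = 0.168).

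EIF3A and EIF3E show how far the experiments parted. EIF3A, the largest core subunit, had 8.42 and 8.44 after anti-miR-191, against 7.36 and 8.48 in controls, so that control 1 alone was low. EIF3E had 6.44 and 5.91 after anti-miR-191, against 6.01 and 6.65 in controls, and its changes were 0.44 and -0.74. EIF3F was measured by a pair of rows that disagree, with changes of -0.27 and -0.065 in the brighter and 0.44 and -0.07 in the dimmer. EIF3H, EIF3I, EIF3J, EIF3L and EIF3M were not called, with changes between 0.11 and 0.65 in experiment 1 and between -0.16 and 0.63 in experiment 2. The row shared by EIF3C and EIF3CL had changes of 0.35 and 0.01. EIF3J-DT, the noncoding transcript, had the highest mean change of the group, with 5.48 and 6.29 after anti-miR-191, against 5.32 and 4.99 in controls (0.73, adjusted p = 0.102).

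In the EIF4 group 3 of 11 genes rose, or 27.3%, and 0 fell, where 10.1% of all genes rose and 3.77% fell. The median change of the group was 0.28. EIF4A2 had the largest change of the family. This DEAD-box helicase, a close relative of EIF4A1, unwinds mRNA for scanning and also binds the CCR4-NOT complex. It had 8.58 and 9.31 after anti-miR-191, against 7.20 and 7.70 in controls. Its groups did not overlap and it rose 2.82-fold (1.496 ± 0.15, SE; adjusted p = 0.0023, and 0.048 without the block). Without the block the call ended when anti-miR-191 array 2, control 1 or control 2 was left out (adjusted p = 0.207, 0.161 and 0.107). Another EIF4A2 row was dim, with changes of 0.19 and 0.16. A row assigned to both EIF4A2 and SNORA4, a small nucleolar RNA encoded within it, went the other way, with 5.02 and 5.85 after anti-miR-191, against 5.89 and 7.32 in controls, and it stands for neither gene. The row shared by EIF4A1 and its readthrough transcript with SENP3 had changes of 0.50 and 0.73, and the row assigned to both EIF4A1 and the small nucleolar RNA SNORA48 had changes of -0.36 and 0.13.

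EIF4A3 is the helicase of the exon junction complex, which marks spliced mRNAs. It had 8.93 and 8.76 after anti-miR-191, against 8.09 and 7.58 in controls, without overlap. It rose 2.01-fold (1.01 ± 0.16, SE; adjusted p = 0.0078), and its adjusted p without the block was 0.055. EIF4G1, the scaffold that joins the cap-binding protein to the helicase, had 8.91 and 9.03 after anti-miR-191, against 8.18 and 8.49 in controls, and rose 1.55-fold (adjusted p = 0.029). EIF4G2, a relative that lacks the eIF4E-binding site, had 9.33 and 8.72 after anti-miR-191, against 8.22 and 8.82 in controls, with opposite directions in the experiments.

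None of the 4 cap-binding proteins was called, where 13.9% of all genes tested were. EIF4E had 4.39 and 4.36 after anti-miR-191, against 4.05 and 3.78 in controls, a change of 0.46 at a level not shown to be above background (adjusted p = 0.088). EIF4E3 had 4.29 and 4.20 after anti-miR-191, against 4.62 and 4.47 in controls, the lowest mean change of the group at -0.30. The helicase cofactor EIF4B was measured by 3 rows whose changes in experiment 2 ranged from -0.34 to 0.26, and its partner EIF4H had changes of 0.38 and 0.17 in experiments 1 and 2. EIF4E2, which binds the cap without recruiting eIF4G, had changes of 0.25 and 0.29, the germ-line relative EIF4E1B of 0.05 and -0.21, and the eIF4E transporter EIF4ENIF1 of 0.15 and 0.26.

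The proteins that hold eIF4E back lie outside the EIF genes as defined here. EIF4EBP1, which releases eIF4E when mTOR phosphorylates it, had 8.66 and 8.43 after anti-miR-191, against 9.24 and 9.16 in controls. The arrays of the groups did not overlap and it fell by 0.65 ± 0.15 (SE; adjusted p = 0.025, and 0.074 without the block). EIF4EBP2 had 7.47 and 7.15 after anti-miR-191, against 7.56 and 7.86 in controls, a change of -0.40 (adjusted p = 0.207).

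Of the late factors, EIF5 rose. It encodes the activator of GTP hydrolysis by eIF2, and had 6.98 and 6.53 after anti-miR-191, against 5.96 and 6.13 in controls. Its groups did not overlap and it rose 1.64-fold (0.71 ± 0.18, SE; adjusted p = 0.041). EIF5B, which joins the subunits, had 6.38 and 5.84 after anti-miR-191, against 5.73 and 6.25 in controls, and its groups overlapped. The change of EIF5A2, a relative of the elongation-stimulating eIF5A, was 0.25 at a level not shown to be above background. Rows shared by EIF5A and EIF5AL1 had changes between 0.02 and 0.05 in experiment 1 and between -0.10 and -0.09 in experiment 2. EIF6, which keeps the large subunit from joining too early, had 11.44 and 11.59 after anti-miR-191, against 11.48 and 11.45 in controls, a change of 0.04 (adjusted p = 0.882).

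**Figure D3:**
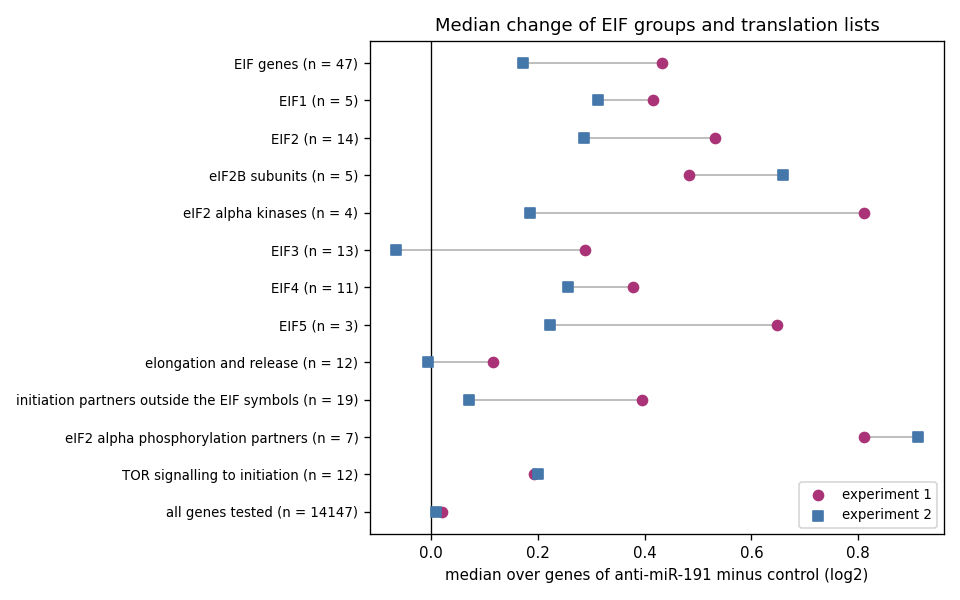
Median over genes of the change (x axis, log2, anti-miR-191 minus control) in experiment 1 (circles) and experiment 2 (squares) for the EIF groups, some of their functional subsets, the 4 translation lists and all genes tested. The EIF3 medians are 0.29 and -0.065, those of the EIF1, EIF2, EIF4 and EIF5 groups lie above 0 in both experiments, and all genes tested lie at 0.02 and 0.01.

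The direction of change was shared by both experiments for most EIF genes, and for most of all genes tested as well. Of the 47, 42 were higher after anti-miR-191 in experiment 1 and 29 in experiment 2. Of the 14147 genes tested, 7413 and 7229 were. In both, 28 were higher (36.5% of all genes tested were) and 4 were lower (33% were). Opposite signs were seen for 15 of the 47, a share close to the 30.4% of all genes tested. Of those 15, 14 were higher in experiment 1 and lower in experiment 2, or 29.8% of the EIF genes, where 15.9% of all genes tested were. As a description across genes, which are not independent replicates and share the 4 arrays, the changes of both experiments correlated at r = 0.343 over the EIF genes and at 0.678 over all genes tested.

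**Figure D4:**
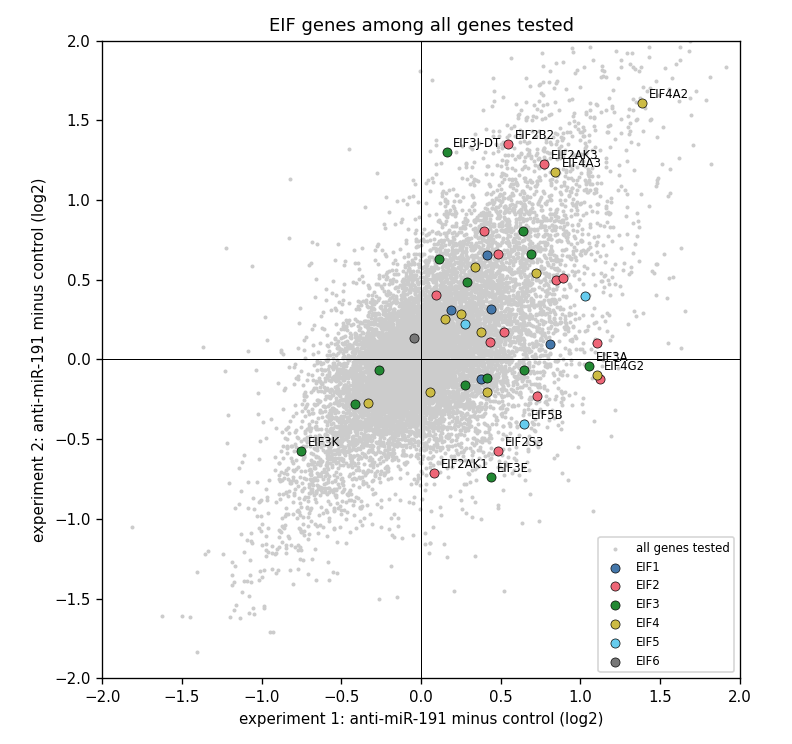
Change in experiment 1 (x axis) against change in experiment 2 (y axis), both in log2 units, with EIF genes coloured by group over all genes tested in grey, of which 92 lie outside the axes. EIF4A2 sits at the upper right and EIF3K at the lower left, and 14 EIF genes lie right of 0 and below 0.

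Genes of translation outside the EIF symbols were followed in 4 lists, chosen with earlier results of these data known. The eIF2 alpha partners are given above. Of 12 elongation and release factors, 0 were called in either direction by either fit, and their median change was 0.17. Of all genes 13.9% were called with the block and 3.91% without it. EEF2, which moves the ribosome along the mRNA, had 11.60 and 11.63 after anti-miR-191, against 11.58 and 11.41 in controls (0.12, adjusted p = 0.671). Of 19 initiation partners 1 rose (5.26%, against 10.1% of all genes), MKNK2, a kinase that phosphorylates eIF4E. It had 8.74 and 8.99 after anti-miR-191, against 8.18 and 7.99 in controls, and rose 1.72-fold (adjusted p = 0.021, and 0.060 without the block). PABPC1, which binds the poly(A) tail and eIF4G1, had 9.35 and 9.31 after anti-miR-191, against 9.14 and 9.48 in controls (0.02, adjusted p = 0.944).

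Of 12 genes that link TOR signalling to initiation, 3 rose, or 25%, and 0 fell, where 10.1% of all genes tested rose and 3.77% fell. Without the block 2 rose, where 3.2% of all genes did. RPTOR, the subunit that brings substrates such as EIF4EBP1 to mTOR, had 7.72 and 7.65 after anti-miR-191, against 7.13 and 6.95 in controls. The arrays of the groups did not overlap and it rose 1.57-fold (adjusted p = 0.025, and 0.071 without the block). The others were SESN2 and DDIT4, stress-induced inhibitors of TOR complex 1, with changes of 2.17 and 1.397. Over the 4 lists together, 8 of 50 genes tested rose, or 16%, and 0 fell, where 10.1% of all genes rose and 3.77% fell. As the lists were chosen with earlier results known, these shares are descriptions only.

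RefSeq promoter windows, from 250 bases before to 50 bases after a start, were found for 41 of the 48 EIF genes in 52 windows and were set against all 35116 windows. In all, 11 letter patterns were counted on both strands, except the pyrimidine run at the start, which was read in the direction of transcription only. A C at the start followed by at least 4 further pyrimidines, the form of the terminal oligopyrimidine tract of many translation mRNAs, stood in 19.2% of EIF windows, against 4.07% of all windows. It was found in 10 EIF genes, including EIF4A2 and EIF3D, which rose, and EIF3K, which fell. CACGTG, the same on both strands, stood in 21.2% of EIF windows, against 7.26% of all, and CCGGAAGT in 17.3%, against 4.14%. TATAAA stood in 1.92% of EIF windows, against 11.5% of all, in EIF4A2 alone. The composite pattern of CHOP and ATF4, TGATGNAA, stood in 1.92%, against 3.62%. The cAMP response pattern TGACGTCA stood in 0, against 1.85%, and its inner TGACGT, counted within it as well, in 5.77%, against 7.98%. The GC box GGGCGG stood in 69.2%, against 45.0%, and CCAAT in 34.6% of both. The NRF1 pattern stood in 0, against 1.24%, and the YY1 pattern in 3.85%, against 0.849%. The EIF windows had a median of 66% G or C, against 58.7% of all windows, and these matches are descriptions of letters in these windows.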

How the data were processed

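RNA of 4 HepG2 cultures was measured on 1-colour arrays, and the authors deposited RMA values as log2 intensities. The software was Affymetrix Expression Console, according to the submitters' processing notes, with no version given. RMA corrects for background, scales arrays to each other and combines the probes of a row. Base 2 is the usual output of RMA and fits the values' range, but no source states it. Intensities carry no counting depth, so the number of arrays limits precision.

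Of 33297 rows, GEO's platform annotation names 1 gene for 19460, several for 1754 and none for 12083, and 19429 had their gene in RefSeq (GRCh38.p14). Rows in the lower 33.3% of mean level were left out, and the brightest row stood for a gene. The test was limma 3.58.1 (lmFit and eBayes, R 4.3.3), two-sided, with the experiment as a block and Benjamini-Hochberg adjustment over 14147 genes. It leaves 1 residual degree of freedom, to which moderation adds 6.60. Arrays were paired by the numbers in the titles and by the series text, where duplicates are said to be independent studies. Deviations of same-numbered arrays correlated at 0.335. With the block, the p-values and SEs rest on how far a gene's changes differ between the experiments, and more on the moderation over all genes tested. They do not measure the spread between arrays of a group. Only the fit without the block uses that spread, also with moderation. The sources do not describe the cultures further.

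Named genes were every EIF gene past the threshold in either fit, the extremes and the brightest of each group, the eIF2 subunits and kinases, EIF4E and its binding proteins, EIF6, and up to 6 called members of each list with PPP1R15A, ATF4, EEF2 and PABPC1. The other EIF genes, the markers and some of the rows shared by several genes were added after their values were seen. The members, lists and tests were chosen with earlier results of these data known, and the promoter patterns after the values were seen. Other settings tried were the fit with no block, the filter, the scaling, the moderation, the rows, the thresholds and single arrays left out. Figures used matplotlib 3.10.9.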

Additional observations from a re-analysis of the deposited data

How the results depend on the processing

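The count of EIF genes that rose, 12, was 1 with no replicate block and 7 after quantile normalization. It was 3 when all rows above the dim limit, whatever their symbols, entered the fit (EIF4A2, EIF4A3 and EIF2AK3). The count that fell, 1, was 0 with no replicate block and 0 with all rows above the dim limit (2 and 1 at an unadjusted p under 0.05). It was 2 with EIF4EBP1 and EIF4EBP2 counted, an alternative chosen after seeing the data. Median centring and cyclic loess each ended the calls of EIF2B4, EIF2B5 and EIF5, and quantile normalization also those of EIF2AK4 and EIF2S1. The call of EIF2B5 also ended without rows below the median level, with trend and robust moderation, and with the mean of all rows of a gene. That of EIF2B4 also ended when a change of at least 1.5-fold was required. All rows above the dim limit add tests to the adjustment, and otherwise the cause was not tested. Arrays could be left out only without the block, where the lone array of a group is assumed to vary like the other group. Then between 0 and 2 EIF genes rose and 0 fell (1 at an unadjusted p under 0.05 each time). The 2 rose without anti-miR-191 replicate 1, and 0 rose without anti-miR-191 replicate 2, control replicate 1 or control replicate 2 (11, 13 and 21 at an unadjusted p under 0.05). The adjusted p of EIF4A2 without the block, 0.048, lay between 0.032 and 0.207 in these fits. The genes of the 4 translation lists that rose, 8, numbered 0 to 5, and those that fell, 0, numbered 3 at an adjusted p under 0.10 (4 at an unadjusted p under 0.05). With an array left out, the median change of all EIF genes, 0.35, was 0.21 to 0.42 (0.21 without control replicate 1). The median of the EIF1 group was 0.24 to 0.36 (0.24 without anti-miR-191 replicate 2, 0.30 without anti-miR-191 replicate 1), of the EIF2 group 0.40 to 0.57 and of the EIF4 group 0.21 to 0.35. The median of the EIF3 group, 0.29, was 0.047 to 0.32 (0.11 without anti-miR-191 replicate 1, 0.047 without control replicate 1 and 0.17 without control replicate 2). The median of the EIF5 group, 0.25, was 0.083 without control replicate 1 and 0.39 to 0.42 without each of the others. The median was 0.29 for the EIF2 group and -0.065 for the EIF3 group in experiment 2 alone, and 0.38 for the EIF4 group and 0.65 for the EIF5 group in experiment 1 alone. Single arrays were left out for the EIF genes named by the rule above, and of these 5 uncalled genes changed sign. EIF1B lay between -0.015 and 0.27, EIF2S2 between -0.11 and 1.32, and EIF2S3 between -0.34 and 0.24 (0.19 without anti-miR-191 replicate 2). EIF5B lay between -0.15 and 0.39 (-0.14 without control replicate 1) and EIF6 between -0.031 and 0.12. The uncalled EIF genes outside that rule were not followed in this way, and some of them, such as EIF3A without control replicate 1, also changed sign.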
